A study of Mus musculus with 12 samples.

Results

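Lonp1, Clpp, Clpx, Afg3l2, Yme1l1, Hspa9, Dnaja3, Hspd1, Hspe1 and Trap1 encode chaperones and ATP-dependent proteases of mitochondria. These 10 genes, of 24453 listed, were matched by symbol in both deposited tables with no threshold on their values, and their RNA was compared across 12 mouse liver libraries, 3 in each of 4 groups. In L-iAMPK livers on doxycycline, where AMPK was active per the labels, the mRNAs of the proteases Lonp1 and Afg3l2 and of the chaperones Hspa9 and Trap1 were lower than in L-iAMPK livers without doxycycline, while that of the protease Yme1l1 was higher. In this comparison the calls of Lonp1, Afg3l2 and Yme1l1 held under every scaling tried, and those of Hspa9 and Trap1 did not. That of Yme1l1 was lost when some single libraries were left out, and Lonp1 and Afg3l2 did not pass in the authors' deposited comparison. Against iAMPK livers on doxycycline, Afg3l2 did not pass under the other scalings. With doxycycline alone, in iAMPK livers, 0 of the 10 genes passed the test used, as did 0 of all 12614 genes tested.

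Most mitochondrial proteins are made in the cytosol and enter the organelle unfolded, so the matrix needs chaperones to pull them in and fold them, and proteases to remove those that misfold or lack partners. When folding in the matrix is disturbed, mammalian cells can raise the mRNA of such chaperones and proteases, a response in which the transcription factors ATF5, ATF4 and CHOP take part. Hepatocytes, the main cells of the liver, are rich in mitochondria. Doxycycline, used here as an inducer, is an antibiotic against bacterial ribosomes that can also slow the related ribosomes of mitochondria.

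All mice were C57Bl/6J, were homozygous for ColA-AMPKa1(312) and for R26-rtTA, per the labels, and ate a high-fat diet, with 45% of its calories as fat, for 8 weeks. L-iAMPK mice carried Albumin-Cre in addition, whose promoter is active in hepatocytes, and iAMPK mice did not. The groups were L-iAMPK on the diet with doxycycline (L-iAMPK HFD+dox), L-iAMPK on the diet alone (L-iAMPK HFD), iAMPK on the diet with doxycycline (iAMPK HFD+dox) and iAMPK on the diet alone (iAMPK HFD). AMPK is an energy-sensing kinase and Prkaa1 encodes its α1 catalytic subunit. The labels give neither age nor sex, and they number livers without saying that each came from its own mouse, so the p-values rest on the spread among the deposited samples, which may in part be technical.

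Prkaa1 averaged 1071 ± 170 FPKM in L-iAMPK HFD+dox, against 3.51 ± 0.343 FPKM for L-iAMPK HFD, 2.85 ± 0.214 FPKM for iAMPK HFD+dox and 3.34 ± 0.749 FPKM for iAMPK HFD (SD, n = 3 each). The libraries whose reads could be counted back held 13569437 to 20696899 reads in genes. Hepatocyte markers summed to between 43050 and 56830 FPKM in every library, and the acinar pancreas markers Pnlip, Cpa1 and Prss2 were listed at 0 in all 4 groups. Stellate cell markers summed to 102 to 131 FPKM in L-iAMPK HFD+dox, against 149 to 214 in L-iAMPK HFD, and endothelial markers to 83.8 to 103 against 104 to 121 FPKM. Of the 8 markers of each of these cell types, 5 were lower and 0 higher in that comparison, beside 21.1% of all genes lower and 4.76% higher. Cholangiocyte markers summed to 17.6 to 22.5 FPKM in L-iAMPK HFD+dox, against 38.0 to 154 FPKM in L-iAMPK HFD, while macrophage markers overlapped (110 to 200 against 184 to 204 FPKM). Against the iAMPK groups, the stellate sums of L-iAMPK HFD+dox overlapped with iAMPK HFD+dox (114.6 to 190 FPKM) and iAMPK HFD (124.1 to 160.6). Its endothelial sums lay below iAMPK HFD+dox (105.9 to 116.5 FPKM) and overlapped with iAMPK HFD (88.4 to 110.1). Its cholangiocyte sums lay below both (26.6 to 180.3 and 28.8 to 63.3 FPKM). Against iAMPK HFD+dox, 0 of the 5 cholangiocyte and 0 of the 8 endothelial markers passed. Of the 8 stellate markers 2 were lower there, beside 10.3% of all genes lower and 4.61% higher. The part of these shifts in the members' changes was not tested. In bulk liver, fewer cells of a type and less RNA per cell cannot be told apart.

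Levels are given in FPKM, read counts scaled to transcript length and to library depth, which allows genes to be compared per length. All 10 genes passed the filter for testing (at least 0.5 FPKM in at least 3 libraries) in 12 of 12 libraries and ranked at or above the 90.7th percentile of all genes by mean level. Hspa9 was the most abundant, with a mean of 131 FPKM over the 12 libraries, and Trap1 followed with 84.1. Clpx (49.2), Lonp1 (48.9), Hspd1 (43.7) and Dnaja3 (39.7) came next, then Afg3l2 (30.0), Clpp (23.4), Hspe1 (22.2) and Yme1l1 (21.2). Hspa9 lay above Trap1 in every library, whereas Clpx, Lonp1, Hspd1 and Dnaja3 overlapped in range, as did Clpp, Hspe1 and Yme1l1. The highest library exceeded the lowest 2.37 times for Clpx and between 1.26 and 1.54 times for the other 9 genes.

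**Figure D1:**
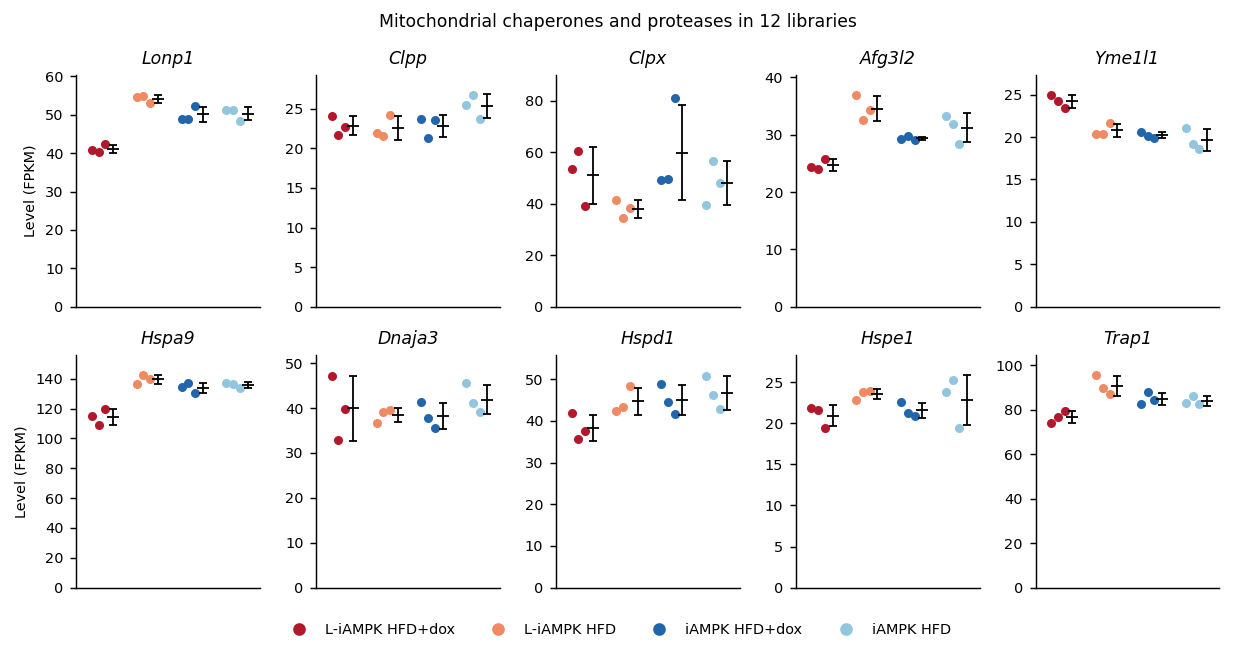
Level in FPKM (linear axes from 0) of the 10 genes in each library (points), with group means and SD (bars, n = 3). The 3 L-iAMPK HFD+dox libraries of Lonp1 (40.2 to 42.3 FPKM) and Afg3l2 (24.0 to 25.8) lie below the 9 libraries of the other groups, and those of Yme1l1 (23.5 to 25.0) lie above them, while Clpx scatters within its groups.

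The first comparison asked how these genes differed when doxycycline was given to L-iAMPK mice. Of the 10 genes, 1 was higher and 4 were lower in L-iAMPK HFD+dox than in L-iAMPK HFD, and 5 did not pass an adjusted p of 0.05 (limma on log2(FPKM + 0.5), Benjamini-Hochberg over 12614 genes). Over all genes tested 25.8% passed, 4.76% higher and 21.1% lower, so the members' lower share stands beside a large background of lower genes. Their median log2 change was -0.19, and that of all genes tested was -0.13.

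Lonp1 encodes the Lon protease, which degrades oxidized and misfolded matrix proteins. Its gene lies at chr17:56614298-56626903 on the minus strand in mm10. Lonp1 had 40.8, 40.2 and 42.3 FPKM in L-iAMPK HFD+dox, against 54.7, 54.8 and 53.0 FPKM in L-iAMPK HFD. In the iAMPK groups it had 49.0, 48.9 and 52.3 FPKM with doxycycline and 51.2, 51.3 and 48.3 FPKM without. The 3 libraries with active AMPK were the lowest of the 12, with a gap to all others. How many of all genes lie apart between groups was not counted, so this and the like separations of other members are descriptions. Its mean was 0.759 times that of L-iAMPK HFD, a log2 change of -0.39 ± 0.06 (SE, limma adjusted p = 0.00119).

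Afg3l2 encodes a subunit of the m-AAA protease of the inner membrane, which faces the matrix and processes or degrades membrane proteins. It had 24.4, 24.0 and 25.8 FPKM in L-iAMPK HFD+dox, against 36.8, 32.5 and 34.3 FPKM in L-iAMPK HFD. It had 29.3, 29.7 and 29.1 FPKM in iAMPK HFD+dox, below every L-iAMPK HFD library, and 33.3, 31.9 and 28.4 FPKM in iAMPK HFD, a range that overlapped with L-iAMPK HFD. No library of another group reached as low as those with active AMPK. Afg3l2 stood at 0.716 times its level in L-iAMPK HFD, a log2 change of -0.47 ± 0.07 (limma adjusted p = 0.00164), the largest fall among the 10 genes.

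Yme1l1 encodes the i-AAA protease, the counterpart of the m-AAA protease that works on the intermembrane side of the same membrane. The gene lies at chr2:23156505-23199260 on the plus strand in mm10. Yme1l1 had 25.0, 24.3 and 23.5 FPKM in L-iAMPK HFD+dox, against 20.3, 20.4 and 21.7 FPKM in L-iAMPK HFD. With the values of 20.6, 20.2 and 19.9 FPKM in iAMPK HFD+dox and 21.1, 19.1 and 18.6 FPKM in iAMPK HFD, the libraries with active AMPK were the 3 highest of 12. Its level was 1.17 times that of L-iAMPK HFD (log2 0.22 ± 0.06, limma adjusted p = 0.0266). The direction held with each library left out, but the adjusted p lay between 0.0632 and 0.0895 without replicate 1 or 2 of either group. With only the compared libraries the limma adjusted p was 0.0518.

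The matrix protease ClpXP consists of the peptidase Clpp and the unfoldase Clpx, which feeds it substrates. Clpp (chr17:56990264-56996371, plus strand) ranged from 21.7 to 24.1 FPKM in L-iAMPK HFD+dox and from 21.5 to 24.2 FPKM in L-iAMPK HFD, and its log2 change of 0.02 had a 95% interval of -0.15 to 0.18. Clpx (chr9:65294260-65330658, plus strand) had 53.4, 60.6 and 39.0 FPKM in L-iAMPK HFD+dox, against 41.4, 34.3 and 38.4 FPKM in L-iAMPK HFD. The lowest library with doxycycline lay within the range of those without, and the log2 change of 0.40 ± 0.22 did not pass (limma adjusted p = 0.198). The pair also differed in spread, with SDs from 5.3% to 6.5% of the group mean for Clpp and from 9.4% to 30.8% for Clpx.

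Among the chaperones, Hspa9 encodes mortalin, the mitochondrial HSP70 that drives import and early folding. It had 115, 109 and 120 FPKM in L-iAMPK HFD+dox, against 137, 143 and 140 FPKM in L-iAMPK HFD. The 2 groups did not overlap, and the iAMPK libraries lay between 130 and 138 FPKM. The log2 change was -0.28 ± 0.06 (limma adjusted p = 0.00755). Dnaja3, also called Tid1, is a J-domain cochaperone of mortalin, and it had 47.2, 32.8 and 39.8 FPKM in L-iAMPK HFD+dox, against 36.8, 39.2 and 39.7 FPKM in L-iAMPK HFD. These values overlapped widely, with a log2 change of 0.03 and a 95% interval of -0.22 to 0.29. Dnaja3 (chr16:4684070-4707693) overlaps Coro7 on the other strand, no source used here says if strand was used in counting, and its 2 table entries name different transcripts, so its values are less certain.

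Hspd1 and Hspe1 encode the chaperonin HSP60 and its lid, the cochaperonin HSP10, which fold proteins in the matrix. Hspd1 had 41.8, 35.8 and 37.5 FPKM in L-iAMPK HFD+dox, against 42.4, 43.4 and 48.5 FPKM in L-iAMPK HFD. Hspe1 had 21.8, 21.6 and 19.4 FPKM in L-iAMPK HFD+dox, against 22.8, 23.8 and 23.9 FPKM in L-iAMPK HFD. Each was below L-iAMPK HFD in every library, by log2 values of -0.22 (95% interval -0.42 to -0.02) and -0.16 (-0.36 to 0.03), but neither passed, with limma adjusted p = 0.0963 for Hspd1 and 0.199 for Hspe1. Both have named pseudogenes in the annotation (5 for Hspd1 and 6 for Hspe1), so reads shared with these copies cannot be told apart here. The 2 gene spans overlap on opposite strands in the annotation, though the deposited transcripts of the 2 genes do not. Trap1 (chr16:4039977-4077810, minus strand), a mitochondrial member of the HSP90 family, had 73.9, 76.9 and 79.5 FPKM in L-iAMPK HFD+dox, against 95.7, 89.9 and 86.9 FPKM in L-iAMPK HFD. The 2 groups were apart, and the log2 change was -0.24 ± 0.06 (limma adjusted p = 0.0171). Trap1 did not pass when replicate 1 of L-iAMPK HFD (adjusted p = 0.0722) or of L-iAMPK HFD+dox (0.0597) was dropped. Its span overlaps Dnase1 on the other strand, so without knowing if strand was used in counting its values too are less certain, and Clpx overlaps a processed pseudogene on the other strand.

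The median of all genes was itself shifted by -0.13, so the calls were repeated under other scalings. Relative to that median, Lonp1 changed by -0.26, Afg3l2 by -0.34, Hspa9 by -0.15, Trap1 by -0.11 and Yme1l1 by 0.35. Lonp1, Afg3l2 and Yme1l1 passed under median-ratio scaling (log2 -0.24, -0.32 and 0.37), under quantile normalization (-0.32, -0.36 and 0.33) and in edgeR on recovered reads, which left out iAMPK HFD+dox replicate 2 (-0.23, -0.32 and 0.39). Hspa9 did not pass under median-ratio scaling (-0.13, adjusted p = 0.187) or in edgeR (-0.12, adjusted p = 0.298), and Trap1 passed under none of the 3, with adjusted p from 0.118 to 0.468. Under median-ratio scaling 11.7% of all genes were higher and 11.4% lower. The signs of the 5 genes were kept under the 3 scalings.

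**Figure D2:**
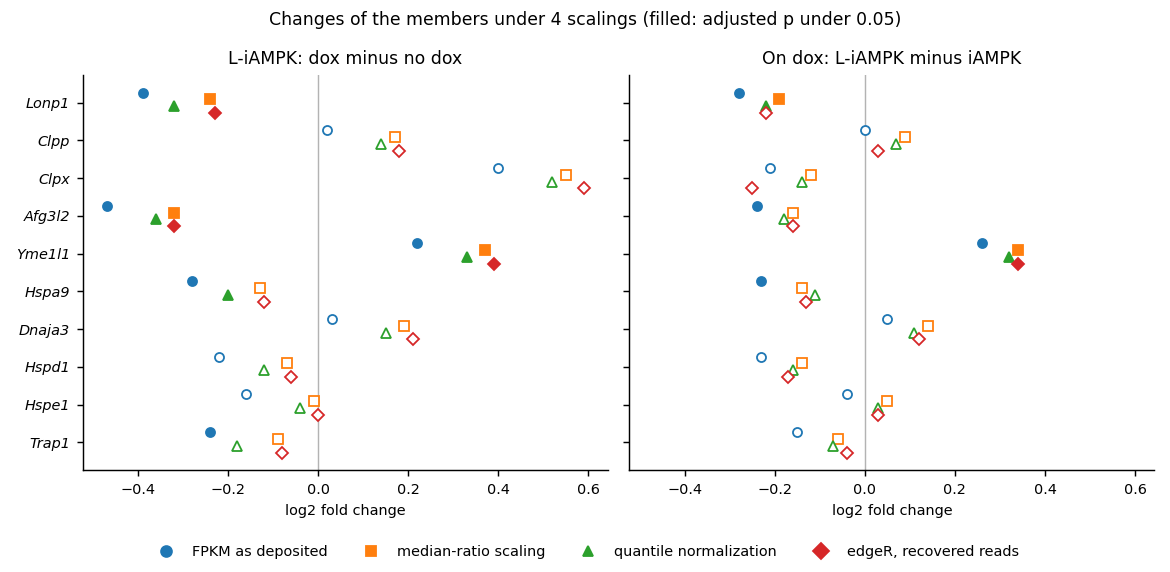
Log2 fold change of the 10 genes under 4 scalings for L-iAMPK HFD+dox minus L-iAMPK HFD (left) and L-iAMPK HFD+dox minus iAMPK HFD+dox (right), with filled symbols for an adjusted p under 0.05. Lonp1 and Afg3l2 stay below 0 and Yme1l1 above 0 in all 4, and Lonp1, Afg3l2 and Yme1l1 are filled in all 4 on the left.

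Promoter sequence was set beside the members that share or oppose a direction. RefSeq windows of 250 bases before and 50 bases after the start (GRCm38.p6) matched 8 of the 10 genes, with 9 windows because Hspd1 has 2, and Hspa9 and Afg3l2 had no entry. Hspd1 and Hspe1 lie head to head on chromosome 1 with 215 bases between their deposited transcripts. The Hspe1 window and 1 of the 2 Hspd1 windows (chr1:55087883-55088182) cover largely the same DNA, read from opposite strands. The windows were searched on both strands for GAANNTTC, a minimal heat shock element, for TGCAAT, part of the C/EBP-CHOP site, for TGATGNAA, an amino acid response element, and for GCGCATGC, the core bound by NRF1. TGATGNAA and TGCAAT can overlap in sequence, and no window held both. Capitals below mark a match; Hspe1 is shown for the promoter it shares with Hspd1, Lonp1 and Yme1l1 as proteases that moved in opposite directions, and Clpx for its match.
Hspe1 (chr1:55087898-55088197, plus strand): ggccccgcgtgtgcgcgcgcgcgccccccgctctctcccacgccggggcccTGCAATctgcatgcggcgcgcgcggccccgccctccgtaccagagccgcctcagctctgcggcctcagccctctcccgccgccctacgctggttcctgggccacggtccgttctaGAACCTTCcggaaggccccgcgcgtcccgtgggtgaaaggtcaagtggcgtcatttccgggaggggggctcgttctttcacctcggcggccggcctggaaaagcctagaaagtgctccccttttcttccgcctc
Lonp1 (chr17:56626854-56627153, minus strand): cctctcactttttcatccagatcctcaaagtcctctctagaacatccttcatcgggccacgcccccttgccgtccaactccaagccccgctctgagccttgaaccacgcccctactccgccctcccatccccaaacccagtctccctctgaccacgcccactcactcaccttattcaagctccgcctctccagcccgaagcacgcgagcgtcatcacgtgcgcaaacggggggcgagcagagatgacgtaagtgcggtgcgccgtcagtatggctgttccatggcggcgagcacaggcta
Yme1l1 (chr2:23156255-23156554, plus strand): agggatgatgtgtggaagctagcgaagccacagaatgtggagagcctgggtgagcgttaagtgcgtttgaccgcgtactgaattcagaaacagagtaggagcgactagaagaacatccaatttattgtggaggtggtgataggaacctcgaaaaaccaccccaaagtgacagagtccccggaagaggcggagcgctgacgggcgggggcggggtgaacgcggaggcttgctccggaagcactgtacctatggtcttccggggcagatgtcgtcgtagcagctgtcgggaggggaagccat
Clpx (chr9:65294010-65294309, plus strand): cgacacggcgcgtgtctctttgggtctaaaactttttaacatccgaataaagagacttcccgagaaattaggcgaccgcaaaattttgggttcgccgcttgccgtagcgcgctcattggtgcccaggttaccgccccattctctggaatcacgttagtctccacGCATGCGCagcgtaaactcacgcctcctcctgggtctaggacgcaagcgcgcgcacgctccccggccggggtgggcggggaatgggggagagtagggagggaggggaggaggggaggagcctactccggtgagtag
The Hspe1 window holds GAACCTTC from position -84 and TGCAAT from position -199, counted from the start of Hspe1. The same letters read from the Hspd1 side are GAAGGTTC from -139 and ATTGCA from -22, counted from the start of Hspd1. Clpx holds GCATGCGC from -86. The windows of Lonp1, Yme1l1, Trap1, Dnaja3 and Clpp and the other Hspd1 window held none of the 4 motifs, which says only that these letters are not in these windows. Of 32851 promoters of the same length, 7.86% hold the heat shock letters, 8.40% TGCAAT, 3.97% TGATGNAA and 2.71% GCGCATGC.

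The second comparison set L-iAMPK livers against iAMPK livers with doxycycline given to both, so that the groups differ in Albumin-Cre and in AMPK activity. Again 1 member was higher (Yme1l1) and 3 were lower (Lonp1, Hspa9 and Afg3l2), while 6 did not pass. Of all genes tested 14.9% passed, 4.61% higher and 10.3% lower, against 8.46% higher and 7.26% lower under median-ratio scaling. The median log2 difference was -0.18 for the members and -0.08 for all genes.

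Lonp1 was 0.821 times as high in L-iAMPK HFD+dox as in iAMPK HFD+dox, a log2 difference of -0.28 ± 0.06 (limma adjusted p = 0.0087). It passed under both other scalings of FPKM, and in edgeR, without iAMPK HFD+dox replicate 2, it was -0.22 with an adjusted p of 0.086. Yme1l1 was 1.20 times as high (log2 0.26 ± 0.06, limma adjusted p = 0.0196) and passed under both scalings and in edgeR (0.34, adjusted p = 0.0485). When replicate 2 or 3 of iAMPK HFD+dox, or replicate 1 or 2 of L-iAMPK HFD+dox, was dropped, its adjusted p was 0.0532 to 0.0709.

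Hspa9 (log2 -0.23 ± 0.06, limma adjusted p = 0.0289) and Afg3l2 (-0.24 ± 0.07, adjusted p = 0.0427) did not overlap between the 2 groups. Neither passed under median-ratio scaling (adjusted p = 0.201 and 0.148), quantile normalization (0.213 and 0.0824) or edgeR (0.393 and 0.277). Afg3l2 did not pass when any 1 of the 6 libraries compared was left out (adjusted p 0.0622 to 0.119), and Hspa9 did not when replicate 2 or 3 of iAMPK HFD+dox, or replicate 1 or 2 of L-iAMPK HFD+dox, was dropped (0.0573 to 0.104). Trap1 was lower in each L-iAMPK HFD+dox library, with a log2 difference of -0.15 (95% interval -0.28 to -0.01) that did not pass (adjusted p = 0.134). Hspd1 differed by -0.23 (-0.43 to -0.03, adjusted p = 0.112). Clpp, Clpx, Hspe1 and Dnaja3 overlapped between the groups, with intervals that held 0.

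Doxycycline without AMPK activation was examined in iAMPK livers, where AMPK was not activated per the labels. Of the 10 genes 0 passed, and 0 also had an unadjusted p under 0.05. Across all genes 0% passed (0 of 12614 by limma, with 786 at an unadjusted p under 0.05, and 0 of 13773 by edgeR without iAMPK HFD+dox replicate 2). Every member overlapped between iAMPK HFD+dox and iAMPK HFD, a description only, since the share of all genes that overlap was not counted.

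The log2 changes in iAMPK livers ran from -0.14 for Clpp to 0.29 for Clpx. The 95% intervals of the 9 members other than Clpx lay between -0.38, the lower end for Dnaja3, and 0.18, the upper end for Yme1l1. Lonp1 changed by -0.01 (-0.13 to 0.12), Afg3l2 by -0.08 (-0.24 to 0.07) and Hspa9 by -0.02 (-0.15 to 0.11). Hspd1, often used as a marker of folding stress in mitochondria, had 48.9, 44.6 and 41.7 FPKM in iAMPK HFD+dox, against 50.8, 46.3 and 42.8 FPKM in iAMPK HFD. Its 95% interval was -0.25 to 0.15. Clpx had 49.0, 49.4 and 81.1 FPKM in iAMPK HFD+dox, against 39.4, 56.8 and 47.9 FPKM in iAMPK HFD, and the third library on doxycycline stood apart at the top. Its interval was -0.19 to 0.77.

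Without doxycycline, L-iAMPK and iAMPK livers differ by Albumin-Cre. Of the 10 genes 0 passed by limma and 0 had an unadjusted p under 0.05, while edgeR called 0 with 2 at an unadjusted p under 0.05. Among all genes 4.31% passed, 3.04% higher and 1.27% lower, against 1.48% higher and 2% lower under median-ratio scaling. Lonp1 and Trap1 were higher in each of the 3 L-iAMPK HFD libraries than in each iAMPK HFD library, with log2 differences of 0.11 (95% interval -0.02 to 0.23) and 0.11 (-0.02 to 0.25). How many of all genes lie apart in this way was not counted, so this separation is only a description. Afg3l2 had 36.8, 32.5 and 34.3 FPKM in L-iAMPK HFD and 33.3, 31.9 and 28.4 FPKM in iAMPK HFD, a log2 difference of 0.15 (-0.01 to 0.30). The median of all genes differed by 0.08 in this direction.

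Whether doxycycline acted differently in the 2 genotypes was tested as the interaction, the change with doxycycline in L-iAMPK minus that in iAMPK. It passed for 2 of the 10 genes, both negative, beside 13.2% of all genes (2.01% positive and 11.2% negative, against 5.72% and 5.74% under median-ratio scaling). For Lonp1 it was -0.39 ± 0.08 (limma adjusted p = 0.016), from changes of -0.39 in L-iAMPK and -0.01 in iAMPK. For Afg3l2 it was -0.39 ± 0.10 (limma adjusted p = 0.0322), from -0.47 and -0.08. With the median of all genes at -0.15, these come to -0.24 for each gene relative to it. Neither passed under median-ratio scaling (adjusted p = 0.0955 and 0.169) or in edgeR, which left out iAMPK HFD+dox replicate 2 (0.171 and 0.291). Without 1 library Lonp1 passed in each of the 12 refits, and Afg3l2 did not pass in 6 of them (adjusted p 0.0569 to 0.0822), those without replicate 1 or 2 of L-iAMPK HFD+dox, replicate 1 of L-iAMPK HFD, replicate 2 or 3 of iAMPK HFD+dox or replicate 3 of iAMPK HFD.

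Hspa9 (-0.26, limma adjusted p = 0.0606), Trap1 (-0.26, 0.0709) and Yme1l1 (0.17, 0.201) did not pass the interaction test as fitted. Yme1l1 passed under median-ratio scaling (0.35, adjusted p = 0.0459), and Trap1 passed without L-iAMPK HFD replicate 3 (-0.29, adjusted p = 0.0402). The interaction of Clpx was 0.11 with a 95% interval of -0.57 to 0.79.

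**Figure D3:**
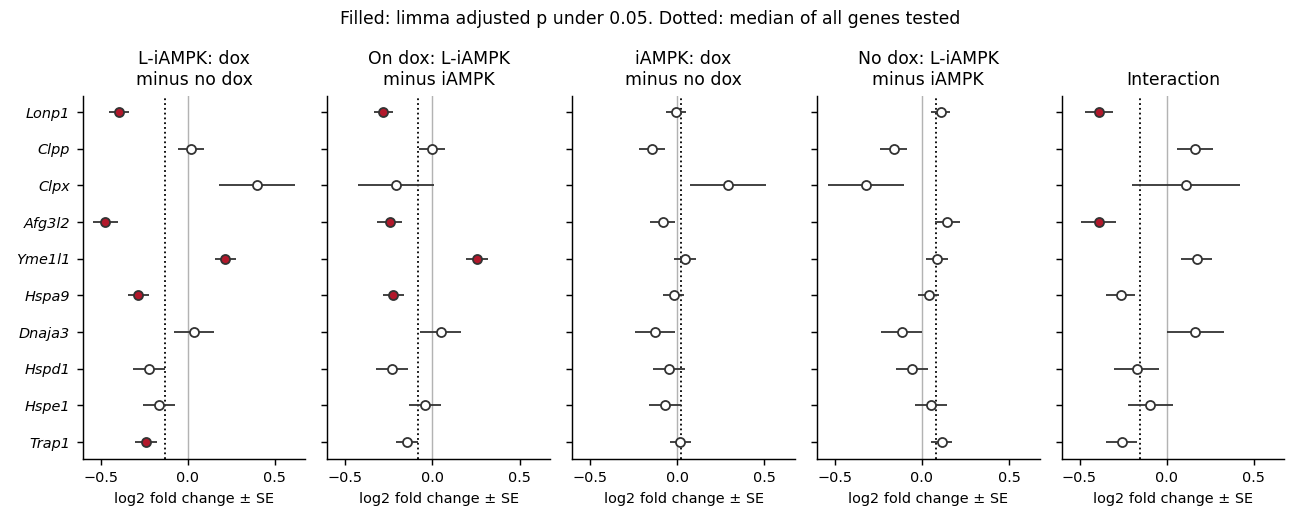
Log2 difference ± SE (limma, 12 libraries) of the 10 genes in the 4 comparisons and the interaction, with filled points for an adjusted p under 0.05 and a dotted line at the median of all genes tested. Filled points fall for Lonp1, Afg3l2, Hspa9, Yme1l1 and Trap1 in the first panel and for 4 of these 5 in the second, and none falls in the panels for doxycycline in iAMPK or for genotype without doxycycline.

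Ratios between members within a library do not change when a library is scaled by a single factor, as in median-ratio scaling. They can change under quantile normalization. The ratio of Yme1l1 to Afg3l2, the i-AAA to the m-AAA subunit, was chosen after the values were seen and is given as a description without a test. It was 1.03, 1.01 and 0.909 in L-iAMPK HFD+dox, against 0.551, 0.627 and 0.634 in L-iAMPK HFD, 0.703, 0.679 and 0.683 in iAMPK HFD+dox and 0.633, 0.599 and 0.656 in iAMPK HFD. The 3 libraries with active AMPK held about as much of one transcript as of the other per length, and the other 9 held less Yme1l1. Yme1l1 to Lonp1, chosen in the same way, was 0.555 to 0.613 in L-iAMPK HFD+dox and 0.371 to 0.420 in the 9 other libraries.

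Lonp1 to Afg3l2 was 1.64 to 1.68 in L-iAMPK HFD+dox and 1.49 to 1.80 in the other groups, so these 2 proteases kept their proportion within the spread of the libraries. For the 2 partners of the chaperonin, Hspd1 to Hspe1 was 1.66 to 1.93 in L-iAMPK HFD+dox, 1.82 to 2.03 in L-iAMPK HFD, 1.999 to 2.17 in iAMPK HFD+dox and 1.83 to 2.21 in iAMPK HFD. All 3 values of L-iAMPK HFD+dox lay below those of iAMPK HFD+dox and overlapped with the groups without doxycycline. Clpx to Clpp, the partners of ClpXP, was 1.72 to 2.79 in L-iAMPK HFD+dox, 1.59 to 1.89 in L-iAMPK HFD, 2.07 to 3.43 in iAMPK HFD+dox and 1.54 to 2.12 in iAMPK HFD. The values of L-iAMPK HFD+dox overlapped with each other group, while iAMPK HFD+dox lay above L-iAMPK HFD.

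**Figure D4:**
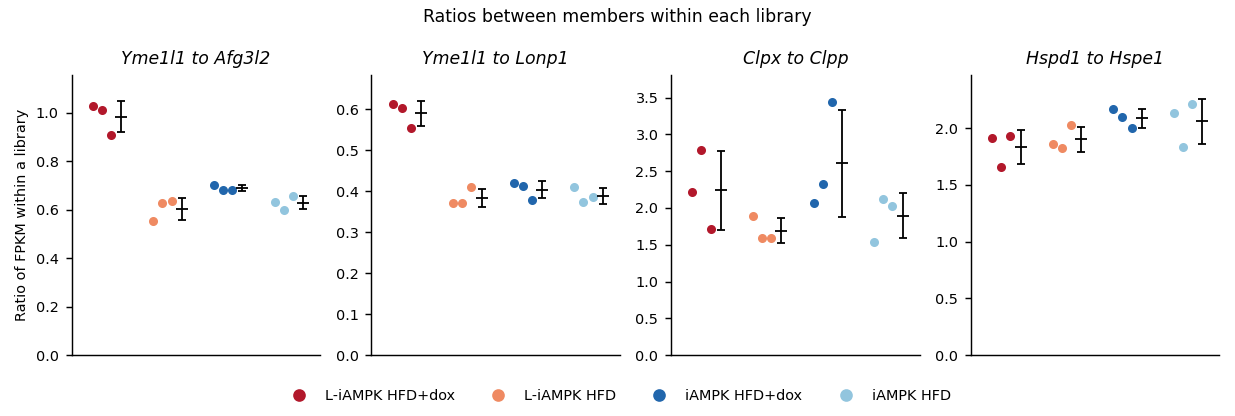
Ratios of FPKM between pairs of members in each library (points) with group mean and SD (bars, n = 3), on linear axes from 0. Yme1l1 to Afg3l2 is 0.909 to 1.03 in L-iAMPK HFD+dox and at most 0.703 elsewhere, while Clpx to Clpp and Hspd1 to Hspe1 in L-iAMPK HFD+dox overlap with L-iAMPK HFD.

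The other genes of mitochondrial protein quality control were described from lists, beginning with the remaining proteases. In L-iAMPK HFD+dox against L-iAMPK HFD, 1 of 14 was higher and 7 were lower, with a median log2 change of -0.23, beside 4.76% of all genes higher, 21.1% lower and a median of -0.13. The higher one was Xpnpep3, an aminopeptidase (log2 0.48 ± 0.11, limma adjusted p = 0.00956). Pitrm1, which degrades cleaved presequences, had 10.96, 11.4 and 10.9 FPKM in L-iAMPK HFD+dox, against 20.8, 19.8 and 17.4 FPKM in L-iAMPK HFD (log2 -0.78 ± 0.08, limma adjusted p = 0.000156). It passed in each of the 3 other scalings, and also against iAMPK HFD+dox (-0.58, adjusted p = 0.00103) and in the interaction (-0.84, adjusted p = 0.00221).

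The partners of Afg3l2 in the m-AAA protease were also lower in this comparison. Spg7, paraplegin, fell by 0.51 ± 0.09 on the log2 scale (limma adjusted p = 0.00321) and Afg3l1 fell by 0.40 ± 0.07 (adjusted p = 0.00246), and both passed under the 3 other scalings and without any 1 library. Mipep, which trims the presequences of some imported proteins, fell by 0.45 ± 0.06 (adjusted p = 0.000981) and passed under the same alternatives. Mipep averaged 16.0 ± 0.419 FPKM in L-iAMPK HFD+dox, against 22.1 ± 0.621 in L-iAMPK HFD, 17.2 ± 1.03 in iAMPK HFD+dox and 17.5 ± 0.752 FPKM in iAMPK HFD (SD, n = 3 each). It was higher in L-iAMPK HFD than in iAMPK HFD (log2 0.33, limma adjusted p = 0.0202), and its difference of -0.09 from iAMPK HFD+dox did not pass (adjusted p = 0.322). The 3 other lower genes, Parl, Pmpcb and Xrcc6bp1, passed under none of the other scalings. Under median-ratio scaling and in edgeR the proteases held 2 higher genes, Xpnpep3 and Pmpca, and 4 lower, Pitrm1, Mipep, Afg3l1 and Spg7. Against iAMPK HFD+dox 0 of 14 were higher and 2 lower (Pitrm1 and Afg3l1), beside 4.61% of all genes higher and 10.3% lower. There Afg3l1 (-0.23, limma adjusted p = 0.0424) did not pass under the other scalings. Under median-ratio scaling and quantile normalization 2 were higher there (Pmpca and Xpnpep3) and 1 lower (Pitrm1), and in edgeR 1 was higher (Pmpca) and 1 lower (Pitrm1).

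Of the other mitochondrial chaperones and cochaperones, 0 of 11 were higher and 1 was lower in L-iAMPK HFD+dox than in L-iAMPK HFD, beside 4.76% of all genes higher and 21.1% lower. The lower one was Tomm34, a cochaperone of import (log2 -0.46 ± 0.10, limma adjusted p = 0.00716). Tomm34 was also lower under the 3 other scalings, beside 2 higher genes under median-ratio scaling and in edgeR (Dnajc19 and Grpel2) and 1 under quantile normalization (Dnajc19). The 3 genes of the prohibitin scaffold that holds the m-AAA protease (Phb, Phb2 and Stoml2) had log2 changes of -0.15, -0.22 and -0.17, and 0 passed. Of 22 genes of the import channels and motor, 1 was higher (Timm8b) and 1 lower (Timm8a1), beside the same shares of all genes. Timm8b, an intermembrane chaperone of import, had 76.1, 77.3 and 80.0 FPKM in L-iAMPK HFD+dox, against 60.7, 58.8 and 57.2 FPKM in L-iAMPK HFD (log2 0.40 ± 0.07, adjusted p = 0.00227), and it was also higher than in iAMPK HFD+dox (0.52, adjusted p = 0.000743). The import list depended on the scaling, with 6 higher and 0 lower under median-ratio scaling, where 11.7% of all genes were higher and 11.4% lower.

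**Figure D5:**
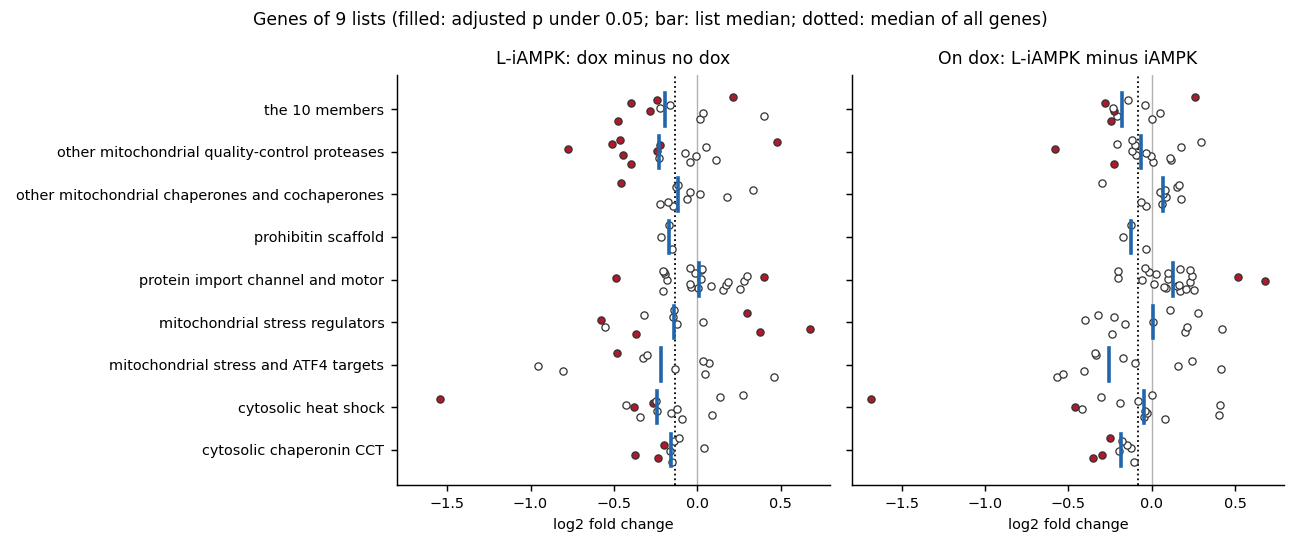
Log2 difference of each gene of 9 lists for L-iAMPK HFD+dox minus L-iAMPK HFD (left) and minus iAMPK HFD+dox (right), filled where the limma adjusted p is under 0.05, with a bar at each list's median and a dotted line at the median of all genes (-0.13 and -0.08). The filled points of the protease list lie mostly below 0 on the left.

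Of 11 measured regulators of mitochondrial stress responses, 3 were higher (Atf5, Atf4 and Sirt3) and 2 lower (Foxo3 and Dele1) in L-iAMPK HFD+dox than in L-iAMPK HFD, where 4.76% of all genes were higher and 21.1% lower. Atf5, a factor of the mammalian mitochondrial unfolded protein response, had 141, 185 and 131 FPKM in L-iAMPK HFD+dox, against 101, 96.2 and 85.1 FPKM in L-iAMPK HFD (log2 0.67 ± 0.14, limma adjusted p = 0.00703), and it passed under the 3 other scalings and without any 1 library. Atf4 was 0.38 ± 0.11 higher (adjusted p = 0.0299), with an adjusted p of up to 0.109 without replicate 2 or 3 of either group. Sirt3, a mitochondrial deacetylase, was 0.30 ± 0.09 higher (limma adjusted p = 0.0304) and passed under the 3 other scalings, but not in 5 of 6 fits with 1 library left out, those other than the fit without L-iAMPK HFD replicate 3 (adjusted p up to 0.113). Foxo3 fell by 0.58 (adjusted p = 0.0101, and 0.0514 under quantile normalization), and Dele1, listed as 0610009O20Rik, a relay of mitochondrial stress to the cytosol, fell by 0.37 (adjusted p = 0.00615).

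Among 10 measured targets of ATF4 and mitochondrial stress, 0 were higher and 1 was lower in L-iAMPK HFD+dox than in L-iAMPK HFD. Of all genes 4.76% were higher and 21.1% lower there, so 0 of 10 higher is near the share of all genes. The lower target was Trib3 (log2 -0.48, limma adjusted p = 0.0428), which did not pass under the other scalings. Shmt2, Ddit4, Sesn2, Gdf15 and Fgf21 had log2 changes of -0.30, -0.80, -0.33, -0.96 and -0.13, with limma adjusted p from 0.0604 to 0.864. Asns, Psat1, Chac1 and Mthfd2, amino acid and folate genes that ATF4 can induce, had log2 changes of 0.46, 0.03, 0.04 and 0.07, with adjusted p from 0.425 to 0.944. The change of Asns had an SE of 0.40, at means of 0.716 FPKM in L-iAMPK HFD+dox and 0.391 FPKM in L-iAMPK HFD. The median of the 10 targets was -0.22, beside -0.13 for all genes. Against iAMPK HFD+dox 0 of the 11 regulators and 0 of the 10 targets passed by limma, and 0 in edgeR, beside 14.9% and 8.14% of all genes. Under median-ratio scaling and quantile normalization 2 regulators were higher there (Atf5 and Sirt3), and 0 targets passed.

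Outside mitochondria, the cytosolic heat shock list held 0 higher and 3 lower of 13 measured genes (Hspb1, Hsp90ab1 and Hspa4) in L-iAMPK HFD+dox against L-iAMPK HFD, a share near the 21.1% of all genes that were lower. Under median-ratio scaling and in edgeR 1 was lower (Hspb1). Hspb1, a small heat shock protein, had 1.33, 0.630 and 0.557 FPKM in L-iAMPK HFD+dox, against 4.07, 2.79 and 3.10 FPKM in L-iAMPK HFD (log2 -1.54 ± 0.32, limma adjusted p = 0.00735). It was also lower than in iAMPK HFD+dox (-1.68, adjusted p = 0.00718), as was Hsp90ab1, a cytosolic HSP90 (-0.46, adjusted p = 0.00413, and 0.0608 in edgeR). The cytosolic chaperonin CCT had 0 of 8 subunits higher and 3 lower (Cct3, Cct4 and Cct7), of which Cct4 passed under the 3 other scalings. With doxycycline in iAMPK livers, 0 genes of each of these 8 lists passed, as did 0 of all genes tested.

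The genes most like a member were taken as those with the smallest root mean square difference between standardized profiles over the 12 libraries, among 10325 genes of at least 1 FPKM. For Lonp1 they were Naglu (0.203), Blvrb (0.219) and BC017158 (0.224), and the closest members were Hspa9 (0.372), Afg3l2 (0.376) and Trap1 (0.486). For Hspd1 they were Pex11g (0.338), Isoc2a (0.343) and Slc25a13 (0.358), and its partner Hspe1 was farther away, at 0.887.

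The authors' deposited table gives its own comparisons of the same groups, with Clpx and Yme1l1 as the 2 members past an adjusted p of 0.05. Both passed for L-iAMPK HFD+dox against L-iAMPK HFD, where 2666 of the 24453 listed genes passed. In the authors' deposited table Clpx was 0.61 higher on the log2 scale in L-iAMPK HFD+dox than in L-iAMPK HFD (adjusted p = 0.00973), and Yme1l1 was 0.40 higher (adjusted p = 0.0375). Lonp1 (-0.22, adjusted p = 0.393), Afg3l2 (-0.30, adjusted p = 0.153) and Hspa9 (-0.11, adjusted p = 0.968) were lower and did not pass in the authors' deposited table. For L-iAMPK HFD+dox against iAMPK HFD+dox, the authors' deposited table has 0 of the 10 past the threshold, with Yme1l1 at 0.37 (adjusted p = 0.0964), beside 1555 of all genes. For L-iAMPK HFD+dox against iAMPK HFD, the smallest adjusted p among the 10 in the authors' deposited table was 0.0739, for Yme1l1 (0.37), beside 1452 genes that passed.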

How the data were processed

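RNA from 12 mouse livers was measured by RNA-seq, 3 libraries in each of 4 groups taken from the sample titles. Libraries were made with a TruSeq stranded-mRNA kit per the labels' protocols. The submitters' processing notes list FastQC, STAR 2.4.0k, HOMER, edgeR 3.6.8 and mm10 without saying what each did, and no source used here says if strand was used in counting. FPKM values were deposited for each gene and library, to which 0.5 had been added (the lowest value is 0.5), and this was subtracted. The other deposited table gives scaled tags per gene as a signal, with the log2 fold changes and p-values of the authors' own comparisons.

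FPKM was fitted with limma 3.58.1 (R 4.3.3) as log2(FPKM + 0.5), a scale that understates changes of low genes, with 4 group means over 12 libraries, trend and robust options, for 12614 genes of at least 0.5 FPKM in at least 3 libraries. P-values were adjusted by Benjamini-Hochberg over all genes tested, at 0.05, and intervals cover 95%. The scaled tags gave whole reads (100% of values within 0.02 of a whole number) in 11 libraries, not claimed for iAMPK HFD+dox replicate 2, and these were tested with edgeR 4.0.16 (quasi-likelihood, TMM) on 13773 genes. The model code was tested on simulated data. Among these 11 libraries no 2 of a group agreed within sampling noise (chi-square per degree of freedom at least 7.93). With 3 libraries a group, the spread between them sets the precision.

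The members and gene lists were chosen with earlier results of these data known. All 10 members are named. From each list up to 4 genes of smallest p are named, others being added where a count of 5 or fewer is given or where they show a list's typical genes, and the nearest genes in profile were taken for Lonp1 and Hspd1. Of the ATF4 and mitochondrial stress targets all 10 measured genes are named. In the lists, 4 genes were matched under another symbol. Alternatives were the scaling, pseudocount, filter, replicate number as a block, only the compared libraries, edgeR, and leaving out each library.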

Additional observations from a re-analysis of the deposited data

Results flagged for a closer look

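Lonp1 and Afg3l2 were singled out because doxycycline was followed by different changes in the 2 genotypes by a test of the difference itself. The interaction of genotype and doxycycline for Lonp1 was -0.39 on the log2 scale (limma adjusted p = 0.016), with Lonp1 lower in 3 of 3 L-iAMPK HFD+dox libraries than in any L-iAMPK HFD library and overlapping between iAMPK HFD+dox and iAMPK HFD. For Afg3l2 it was -0.39 (limma adjusted p = 0.0322), again with 3 of 3 libraries lower in L-iAMPK and an overlap in iAMPK. Both differences did not pass under median-ratio scaling, where they were -0.21 each. With 3 libraries a group, single libraries were not tested for standing apart.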

How the results depend on the processing

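Of 800 values of single members under an alternative, 702 kept their direction and their side of the threshold, 49 kept the direction and no longer passed, 2 newly passed and 47 changed sign, none of these 47 for a called value. For doxycycline in L-iAMPK, 5 members passed as fitted, and 3 passed under median-ratio scaling, with only the compared libraries and in edgeR, and 3 to 5 with 1 library left out. For genotypes on doxycycline the count was 4, and it was 2 under median-ratio scaling and under quantile normalization, 1 in edgeR and 1 to 3 with 1 library left out. For the interaction the count was 2 (Lonp1 and Afg3l2). It was 1 under median-ratio scaling (Yme1l1, which did not pass as fitted) and 1 under quantile normalization (Lonp1). It was 0 in edgeR (3 at an unadjusted p under 0.05) and 1 to 3 with 1 library left out. In the other comparisons 0 passed under any alternative run.

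Replicate numbers did not pair the samples: r of same-numbered libraries ran from -0.275 to 0.446, 8 of 18 above 0.1, and in 14 of 36 checks a library correlated best with its own number. With the replicate block, 5 members passed for doxycycline in L-iAMPK, 2 for genotypes on doxycycline (Hspa9 and Afg3l2 at adjusted p = 0.0577 and 0.0635) and 2 for the interaction. Over all genes, edgeR called 1121 against 1882 in limma for genotypes on doxycycline and 779 against 1663 for the interaction. For genotypes without doxycycline, 335 passed with only the compared libraries against 544. With 1 library left out, the counts were 1871 to 3413, 907 to 2445, 528 to 2801 and 37 to 1438 for doxycycline in L-iAMPK, genotypes on doxycycline, the interaction and genotypes without doxycycline.

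Signs changed for uncalled values near 0. For genotypes on doxycycline Clpp was 0.09, 0.07 and 0.03 and Hspe1 0.05, 0.03 and 0.03 under median-ratio scaling, quantile normalization and edgeR. For doxycycline in iAMPK Trap1 was -0.01 under median-ratio scaling and -0.03 in edgeR, and Lonp1 and Hspa9 were 0.00 under quantile normalization. For genotypes without doxycycline Hspe1 was -0.04, -0.01 and -0.06 under the 3 scalings, and under median-ratio scaling and edgeR Hspa9 was -0.06 and -0.07 and Yme1l1 -0.01 and -0.02. For the interaction Hspd1 was 0.01 under median-ratio scaling and Hspe1 0.09, 0.05 and 0.09 under the 3 scalings. With 1 library left out, Clpp ranged from -0.02 to 0.07 and Dnaja3 from -0.09 to 0.17 for doxycycline in L-iAMPK; Clpp from -0.05 to 0.04, Clpx from -0.35 to 0.03, Dnaja3 from -0.08 to 0.18 and Hspe1 from -0.07 to 0.01 for genotypes on doxycycline. In the same way Hspd1 ranged from -0.11 to 0.01, Hspe1 from -0.18 to 0.00, Lonp1 from -0.04 to 0.01 and Trap1 from -0.01 to 0.04 for doxycycline in iAMPK; Hspd1 from -0.12 to 0.00 and Hspe1 from -0.06 to 0.13 for genotypes without doxycycline; and Clpx from -0.02 to 0.35 and Hspe1 from -0.17 to 0.02 for the interaction. The cause of these changes was not tested.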

Other observations

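Clpx varied more within its groups than any other member, and its nearest genes in profile over the 12 libraries were looked up after its values were seen. They were Arntl, which encodes the core clock factor BMAL1 (root mean square difference 0.411), Tars, a threonyl-tRNA synthetase (0.506), and Gldc, of the glycine cleavage system (0.511). Arntl had 1.64, 3.13 and 1.06 FPKM in L-iAMPK HFD+dox, against 0.961, 0.677 and 0.554 FPKM in L-iAMPK HFD. In the iAMPK groups Arntl had 1.40, 1.29 and 4.04 FPKM with doxycycline and 0.971, 1.18 and 1.31 FPKM without. The library with the most Clpx, iAMPK HFD+dox replicate 3 (81.1 FPKM), also had the most Arntl, and L-iAMPK HFD+dox replicate 2 was second in both. Arntl was picked for its likeness to Clpx over these same libraries, so such a match follows from the choice. The time of day at which livers were taken is not given in the labels, and its part in the spread of Clpx was not tested.

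For Yme1l1, also looked up after its values were seen, the nearest were Rrp1, a ribosome biogenesis factor (0.240), Wbp1 (0.296) and Cox16, an assembly factor of cytochrome c oxidase (0.309). Cox16 averaged 27.2 ± 0.314 FPKM in L-iAMPK HFD+dox, against 23.6 ± 1.80 FPKM in L-iAMPK HFD (SD, n = 3 each), and these are descriptions with no test.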
